A study of Avena sativa with 6 samples.

Results

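ADP-glucose pyrophosphorylase genes were followed in grains of the high-oil oat cultivar BY9 whose ears had been kept from light. All rows of the deposited expression table whose KEGG annotation contains K00975 (glgC, glucose-1-phosphate adenylyltransferase) were taken, which gave 15 genes of 136488. The rule used the annotation and no measured value, though it was set with earlier results of these data known. The ear-shaded group had 3 libraries of peeled grains from ears of Baiyan No.9 (BY9) shaded for 4 days after flowering, and the unshaded group had 3 libraries of peeled grains from ears of the same cultivar left in the light. The labels name the same cultivar in both groups. They leave unsaid whether replicates are different plants, and the p-values therefore rest on library-to-library spread that may be technical.

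ADP-glucose pyrophosphorylase joins glucose-1-phosphate and ATP to ADP-glucose and pyrophosphate, the step that commits glucose to starch in plants. The enzyme is built of large and small subunits, and both kinds belong to the same KEGG entry. In the cereal endosperm of barley, maize and wheat most of the activity lies in the cytosol, and the ADP-glucose made there is carried into the amyloplast, the plastid that holds the starch granule. The protein of leaf chloroplasts is activated by 3-phosphoglycerate and inhibited by phosphate. None of the 15 annotations names a subunit (0 genes), so no copy is called large or small here.

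Levels are in FPKM, which divide the fragments of a gene by its length and by the size of the library, so different copies are compared per length. The number of reads behind the values is unknown. Summed over all genes, the ear-shaded libraries held 493004 to 510815 FPKM and the unshaded ones 530911 to 561772 FPKM. The 58283 genes averaging 1 FPKM or more were tested with limma on log2(FPKM + 1), with p-values adjusted over all of them. All 15 copies passed this filter. Markers of grain and of green tissue also differed between the groups. The 128 genes with storage protein text, which mark filling grain, summed to between 5848 and 9254 FPKM in ear-shaded grains and to between 19032 and 38867 FPKM in unshaded grains, and 72 of 90 tested were lower and 0 higher. Granule-bound starch synthase genes, also set as a grain marker, differed less. They summed to between 369 and 453 FPKM in ear-shaded and between 485 and 634 FPKM in unshaded grains. Of 4 tested, 2 were lower and 1 higher. Oleosin genes, which coat oil bodies, summed to between 7.05 and 7.61 FPKM in ear-shaded and between 18.2 and 32.0 FPKM in unshaded grains, with 5 of 5 tested lower. The 52 light-harvesting genes with LHCB1 text, which mark green tissue, summed to between 184 and 241 FPKM in ear-shaded and between 2.80 and 4.23 FPKM in unshaded grains, with 10 of 10 tested higher. The LHCA1 genes (3 of 3) and the genes of the small Rubisco subunit (23 of 23 tested) were higher too. Of all tested genes, 21.5% were called lower and 42.4% higher. Genes at 0 in all libraries numbered 0 in each list. The part of these markers in the results on ADP-glucose pyrophosphorylase was not tested, and in whole grains fewer cells of a type and less RNA per cell cannot be told apart.

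Most copies of ADP-glucose pyrophosphorylase were lower in grains of shaded ears. Of the 15 genes, 9 passed the threshold as lower, 1 as higher and 5 did not pass (limma, adjusted p under 0.05). Of all tested genes 63.9% were called, 21.5% lower and 42.4% higher. A log2 fold change of -1 or less with a call was found in 6 copies and in 10.4% of all tested genes. The libraries of the groups did not overlap in 12 copies, 11 lower and 1 higher, while over all tested genes they did not overlap in 70.2% (24.0% lower and 46.2% higher). The median log2 fold change was -0.83 over the 15 copies and 0.26 over all tested genes. The 15 genes summed to 519, 527 and 533 FPKM in ear-shaded grains, against 1062, 1157 and 791 FPKM in unshaded grains. The summed level was thus 526 ± 6.96 FPKM in ear-shaded and 1004 ± 190 FPKM in unshaded grains (SD, n = 3 each), 1.91-fold lower, and the groups did not overlap. The 3 ear-shaded sums lay close together and the unshaded ones were spread, with unshaded replicate 3 lowest. That library was the lowest unshaded one for 14 of the 15 copies. The log2 ratio of the sums was -0.93, and -1.08 without unshaded replicate 3. Leaving out the lowest unshaded library can only widen this difference. The median log2 fold change of the 15 copies was -0.98 without unshaded replicate 3, -0.81 without unshaded replicate 1 and -0.70 without unshaded replicate 2.

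**Figure D1:**
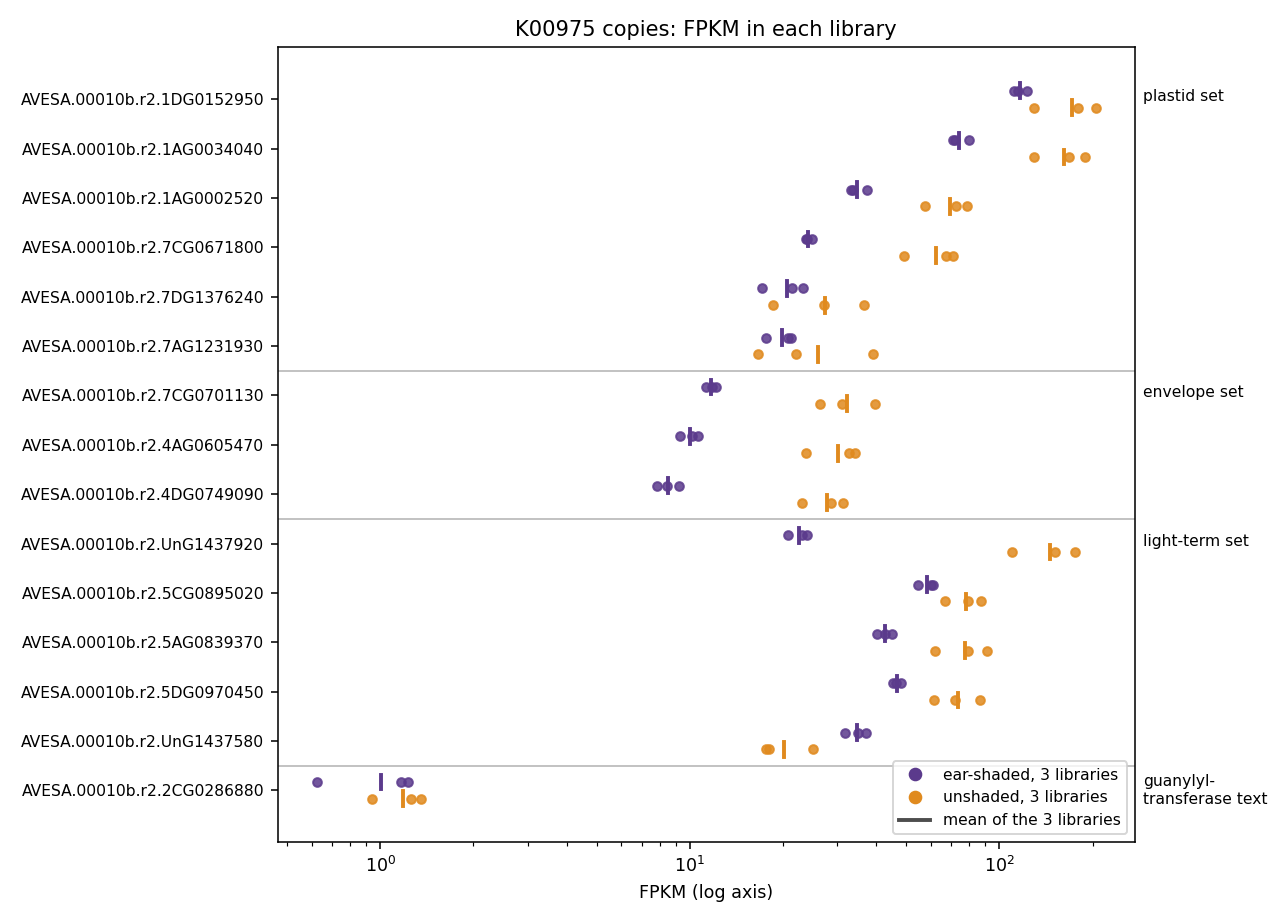
FPKM of each of the 15 copies (log axis) in the 3 ear-shaded libraries (upper row of points) and the 3 unshaded libraries (lower row), with vertical bars at the means, ordered by annotation set and by mean. In 11 copies all ear-shaded points lie left of all unshaded points, in AVESA.00010b.r2.UnG1437580 they lie right of them, and in 3 copies they overlap.

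The gene ontology terms for cell parts divide the copies into 4 sets, and other terms can differ within a set. The terms chloroplast and amyloplast are common to 14 genes. A set of 6 genes, called the plastid set here, has no term for the stroma. Within it, only the copies labelled 7A, 7C and 7D carry the term for starch metabolism. A set of 3 genes, the envelope set, has terms for the stroma and the chloroplast envelope. A set of 5 genes, the light-term set, has terms for the stroma, starch synthesis, response to light and photoperiodic flowering. The term for the activity of the enzyme is given to the envelope and light-term sets. All 14 genes carry text on starch, while the single remaining gene carries text of mannose-1-phosphate guanylyltransferase, an enzyme of GDP-mannose synthesis. The IDs hold a label for the chromosome and subgenome (A, C or D) or Un, and related labels often recur within a set. Positions are not given, since no genome was used. Oat is hexaploid, and how alike the copies are in sequence was not tested. Where copies are near-identical, the deposited values may divide their reads between them, so the value of a single copy is less certain than a sum.

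In the plastid set, which had the largest summed FPKM in both groups, 3 of 6 copies were lower, 0 were higher and 3 did not pass. Over all tested genes 21.5% were lower and 42.4% higher. The set summed to 290 ± 8.18 FPKM in ear-shaded and 518 ± 103 FPKM in unshaded grains (SD, n = 3 each). The most abundant of all copies, AVESA.00010b.r2.1DG0152950, had 112, 115 and 123 FPKM in ear-shaded grains, against 180, 205 and 129 FPKM in unshaded grains. Its groups did not overlap, yet unshaded replicate 3 lay just above the highest ear-shaded library, and the difference did not pass (log2 fold change -0.53, SE 0.21, limma adjusted p = 0.059). It passed as lower without unshaded replicate 3 (-0.72, limma adjusted p = 0.0158) and with median-of-ratios scaling (-0.92), with library weights and without the variance trend, and its sign turned with quantile normalization (0.03). Under the other 12 of 17 alternatives it kept its sign and did not pass. AVESA.00010b.r2.1AG0034040 had 70.7, 72.0 and 79.9 FPKM in ear-shaded grains, against 168, 189 and 129 FPKM in unshaded grains. It was 2.18-fold lower (log2 fold change -1.10, SE 0.19, limma adjusted p = 0.00157), with the groups well apart. The 1D copy averaged 116 ± 5.49 FPKM and the 1A copy 74.2 ± 5.01 FPKM in ear-shaded grains, apart by more than their spread. In unshaded grains the averages were 171 ± 38.5 and 162 ± 30.2 FPKM, within their spread (SD, n = 3 each). These SDs hold library spread that both copies have in common, and ratios within libraries are given below.

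A further copy labelled for chromosome 1A, AVESA.00010b.r2.1AG0002520, had 33.1, 33.7 and 37.3 FPKM in ear-shaded grains, against 72.2, 78.4 and 57.7 FPKM in unshaded grains. It was close to 2-fold lower (log2 fold change -0.97, limma adjusted p = 0.00121). Among the copies labelled 7A, 7C and 7D, only AVESA.00010b.r2.7CG0671800 passed. It had 24.0, 24.8 and 23.7 FPKM in ear-shaded grains, against 67.2, 70.9 and 49.1 FPKM in unshaded grains, 2.58-fold lower (log2 fold change -1.32, limma adjusted p = 0.000354). The partner AVESA.00010b.r2.7DG1376240 had 21.4, 23.2 and 17.1 FPKM in ear-shaded and 36.4, 27.1 and 18.6 FPKM in unshaded grains. AVESA.00010b.r2.7AG1231930 had 20.7, 21.3 and 17.6 FPKM in ear-shaded and 39.2, 22.05 and 16.6 FPKM in unshaded grains. In both the groups overlapped, unshaded replicate 1 was the highest library, and the difference did not pass (limma adjusted p = 0.223 and 0.397). Without unshaded replicate 3 the 7D copy passed as lower (log2 fold change -0.60, limma adjusted p = 0.0297), and without unshaded replicate 1 the 7A copy was at 0.05 on the log2 scale. The 7D copy did not pass under the other 16 of 17 alternatives. It was at -0.13 without unshaded replicate 1 and at -0.34 without unshaded replicate 2. The gene models of these 2 copies are 1391 and 1058 bases long, against 3581 bases for the 7C copy.

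All 3 copies of the envelope set were lower, where 21.5% of all tested genes were lower. They were the least abundant of the copies with starch text in ear-shaded grains. AVESA.00010b.r2.7CG0701130 had 12.2, 11.3 and 11.8 FPKM in ear-shaded grains, against 31.0, 39.5 and 26.4 FPKM in unshaded grains. AVESA.00010b.r2.4AG0605470 had 10.6, 10.2 and 9.27 FPKM in ear-shaded grains, against 32.6, 34.2 and 23.7 FPKM in unshaded grains. AVESA.00010b.r2.4DG0749090 had 8.42, 7.84 and 9.21 FPKM in ear-shaded grains, against 28.7, 31.2 and 23.1 FPKM in unshaded grains. In each copy the highest ear-shaded library stood below the lowest unshaded one by a wide margin. The copies were 2.75-fold, 3.01-fold and 3.26-fold lower in mean FPKM, with log2 fold changes of -1.37, -1.49 and -1.59 and limma adjusted p from 8.84e-05 to 0.000251. The set summed to 30.2 ± 0.966 FPKM in ear-shaded and 90.1 ± 16.0 FPKM in unshaded grains (SD, n = 3 each), 2.98-fold lower. All 3 calls held under each of the 17 alternatives run on the fit.

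The light-term set held the copies that moved furthest in either direction. AVESA.00010b.r2.UnG1437920 had 20.7, 23.1 and 24.0 FPKM in ear-shaded grains, against 151, 176 and 109 FPKM in unshaded grains. Every unshaded library lay far above every ear-shaded one. It was 6.44-fold lower in mean FPKM (log2 fold change -2.61, SE 0.20, limma adjusted p = 5.06e-05), and 0.619% of all tested genes had a log2 fold change as low or lower. Among the 15 copies its rank by level was 9 in ear-shaded grains and 3 in unshaded grains. AVESA.00010b.r2.UnG1437580 was the copy that was higher, with 37.1, 34.8 and 31.8 FPKM in ear-shaded grains, against 25.0, 18.1 and 17.6 FPKM in unshaded grains. Its groups did not overlap and it was 1.71-fold higher (log2 fold change 0.76, SE 0.16, limma adjusted p = 0.0044). Under median-of-ratios scaling it did not pass (0.38 on the log2 scale, limma adjusted p = 0.125). These 2 genes, labelled Un, have short models of 856 and 504 bases, against 2271 to 2326 bases for the other copies of the set, and whether their values stand for whole transcripts was not tested.

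The remaining copies of the light-term set carry the labels 5A, 5C and 5D and lay close together in unshaded grains. AVESA.00010b.r2.5AG0839370 had 40.4, 42.6 and 44.9 FPKM in ear-shaded grains, against 79.0, 91.4 and 62.0 FPKM in unshaded grains, and was lower (log2 fold change -0.83, limma adjusted p = 0.00398). AVESA.00010b.r2.5DG0970450 had 46.3, 45.5 and 48.2 FPKM in ear-shaded grains, against 72.0, 86.4 and 61.5 FPKM in unshaded grains, and was lower (log2 fold change -0.63, limma adjusted p = 0.0106). AVESA.00010b.r2.5CG0895020 had 61.1, 60.2 and 54.5 FPKM in ear-shaded grains, against 79.3, 87.5 and 66.6 FPKM in unshaded grains. Its groups did not overlap, and the difference did not pass (log2 fold change -0.40, limma adjusted p = 0.0587). Its 95% interval, which is not adjusted over genes, ran from -0.76 to -0.03. It passed as lower without unshaded replicate 3 (-0.50, limma adjusted p = 0.0278), with median-of-ratios scaling (-0.78), with library weights and without the variance trend. It did not pass under the other 13 of 17 alternatives. Among these were quantile normalization (-0.14), scaling to equal sums (-0.26) and the fit without unshaded replicate 2 (-0.31). Together the 5A, 5C and 5D copies summed to 148 ± 0.395 FPKM in ear-shaded and 229 ± 37.7 FPKM in unshaded grains (SD, n = 3 each). The 5C copy averaged 58.6 ± 3.60 FPKM in ear-shaded grains, above the 5D copy at 46.7 ± 1.41 and the 5A copy at 42.6 ± 2.24 FPKM. In unshaded grains the 5C, 5D and 5A copies averaged 77.8 ± 10.6, 73.3 ± 12.5 and 77.5 ± 14.8 FPKM, within each other's spread. These SDs hold library spread that the copies have in common. The 5C copy was above the 5D copy in every unshaded library, while the order of 5C and 5A varied.

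The gene with mannose-1-phosphate guanylyltransferase text, AVESA.00010b.r2.2CG0286880, was near the filter. It had 0.624, 1.17 and 1.23 FPKM in ear-shaded grains and 0.944, 1.36 and 1.26 FPKM in unshaded grains. The groups overlapped and the difference did not pass (log2 fold change -0.13, limma adjusted p = 0.493). Its text goes against the K00975 label, and without it 9 of 14 copies were lower and 1 higher. The shares over all tested genes were 21.5% lower and 42.4% higher.

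**Figure D2:**
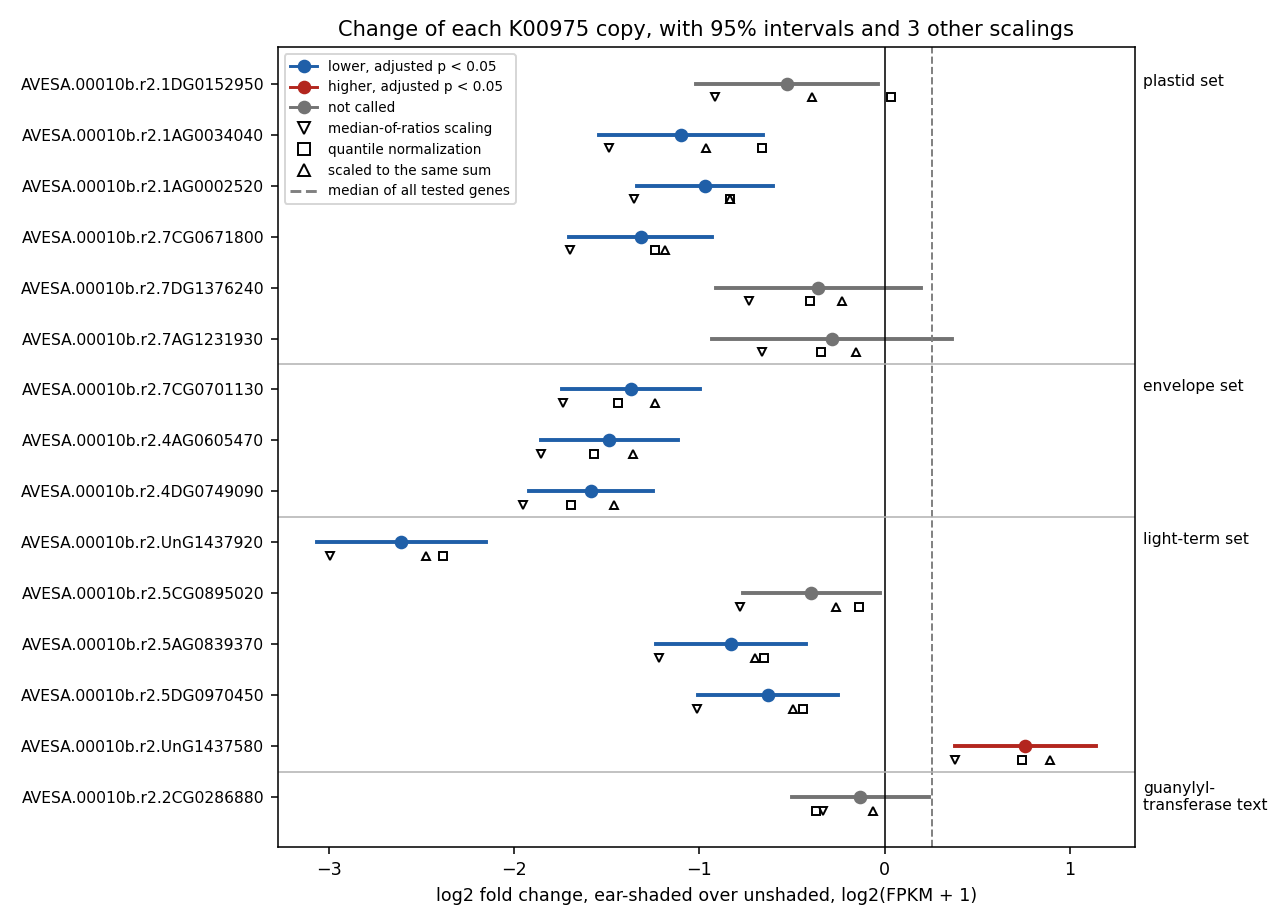
Log2 fold change of each copy, ear-shaded over unshaded, on the log2(FPKM + 1) scale, with 95% intervals from the limma fit (circles and lines, coloured by call) and the values under 3 other scalings (open symbols). The intervals are not adjusted over genes while the calls are. Those of AVESA.00010b.r2.1DG0152950 and AVESA.00010b.r2.5CG0895020 therefore exclude 0 without a call. The values run from -2.61 for AVESA.00010b.r2.UnG1437920 to 0.76 for AVESA.00010b.r2.UnG1437580, and median-of-ratios scaling, under which the median of all tested genes moves from 0.26 (dashed line) to -0.02, puts every copy further to the left.

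The counts of called copies were also taken under other scalings. With median-of-ratios scaling 11 copies were lower and 0 higher, where 31.1% of all tested genes were lower and 28.0% higher. Scaling each library to the same sum left 9 lower and 1 higher, where 38474 of 58283 tested genes were called, 71.6% of them higher. Relative to the median of all tested genes, the median of the 15 copies lay at -1.09 with FPKM as deposited, -1.19 with median-of-ratios scaling, -0.69 with quantile normalization and -1.05 with equal sums. The log2 ratio of the summed FPKM was -1.34 with median-of-ratios scaling and -0.79 with equal sums.

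Ratios between copies are not altered by a factor applied to a whole library. The plastid set made up 55.1 ± 0.828% of the summed FPKM of the 15 genes in ear-shaded and 51.5 ± 1.26% in unshaded grains (SD, n = 3 each). The light-term set made up 39.0 ± 0.735% in ear-shaded and 39.3 ± 0.953% in unshaded grains, a difference smaller than the spread. The envelope set made up 5.75 ± 0.235% in ear-shaded and 9.00 ± 0.280% in unshaded grains, with no overlap. Within the light-term set AVESA.00010b.r2.UnG1437920 made up 10.1%, 11.2% and 11.8% in ear-shaded grains, against 37.2%, 38.3% and 34.5% in unshaded grains. AVESA.00010b.r2.UnG1437580 made up 18.0%, 16.9% and 15.6% in ear-shaded grains, against 6.14%, 3.93% and 5.54% in unshaded grains. Thus the copy that led the set in each unshaded library was its smallest part in each ear-shaded library. Within the plastid set AVESA.00010b.r2.1DG0152950 made up 40.1 ± 0.821% in ear-shaded and 32.9 ± 1.44% in unshaded grains, while AVESA.00010b.r2.1AG0034040 made up 25.6 ± 1.08% in ear-shaded and 31.3 ± 1.30% in unshaded grains. These shares are parts of a total, so a rise of one share lowers the others.

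**Figure D3:**
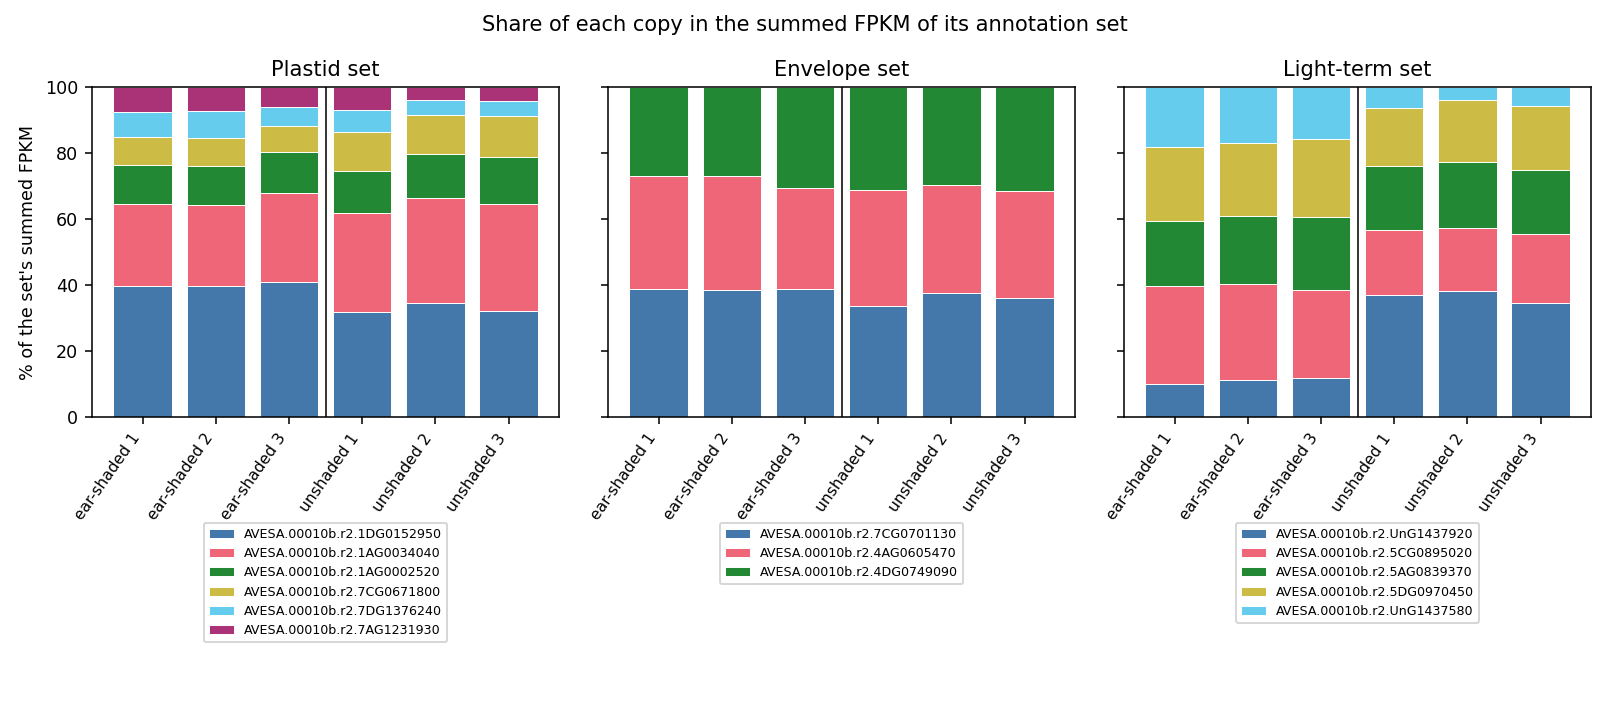
Share of each copy in the summed FPKM of its annotation set (percent, stacked bars), for the 3 ear-shaded libraries on the left and the 3 unshaded libraries on the right of each panel. In the light-term set the share of AVESA.00010b.r2.UnG1437920 (lowest segment) is 10.1% to 11.8% in ear-shaded and 34.5% to 38.3% in unshaded libraries, while each copy of the envelope set makes up 26.8% to 39.0% of its set in all libraries.

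Differences between copies were tested on the log2 ratio of 2 copies within each library, for the 6 pairs among the 4 most abundant copies and for the 9 pairs called in opposite directions. The 9 pairs were chosen for their opposite calls, so the separation of their groups follows from that choice and their values are a description. With 3 libraries against 3 an exact permutation test cannot go below p = 0.1 (two-sided, adjusted p = 0.107 over the 15 pairs), so no pair could pass. The log2 ratio of AVESA.00010b.r2.UnG1437580 to AVESA.00010b.r2.UnG1437920 was 0.59 ± 0.21 in ear-shaded and -2.78 ± 0.38 in unshaded grains (SD, n = 3 each). The log2 ratio of AVESA.00010b.r2.1DG0152950 to AVESA.00010b.r2.1AG0034040 was 0.64 ± 0.03 in ear-shaded and 0.07 ± 0.06 in unshaded grains. The log2 ratio of AVESA.00010b.r2.1DG0152950 to AVESA.00010b.r2.5CG0895020 overlapped between the groups and was 0.98 ± 0.15 in ear-shaded and 1.11 ± 0.15 in unshaded grains.

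The authors' deposited table marks 9 of the 15 copies as down and 0 as up, and these 9 are the copies called lower here. The 2 thresholds are unlike. The limma call has no minimum fold, while every marked copy has a deposited log2 fold change of -1.046 or lower. At an adjusted p under 0.05 alone, the deposited values give 13 copies, with 0 of them above 0 on the log2 scale. In the tested genes 19.5% carry the mark down in the authors' deposited table and 16.8% the mark up. A further 4 copies have an adjusted p under 0.05 in the authors' deposited table without a mark, among them AVESA.00010b.r2.1DG0152950 (log2 fold change -0.96, adjusted p = 0.000347) and AVESA.00010b.r2.5CG0895020 (-0.81, 0.000207). The deposited log2 fold changes of these 4 run from -0.956 to -0.798. For AVESA.00010b.r2.UnG1437580 the authors' deposited table gives a log2 fold change of 0.38 and an adjusted p of 0.181, so its rise is not called there. The log2 fold changes of the authors' deposited table lie below the log2 ratios of mean FPKM by a median of 0.382 over the tested genes.

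Genes of the steps around ADP-glucose pyrophosphorylase were called in both directions. Of 234 genes in 14 lists of KEGG entries from sucrose cleavage to starch chain building, 145 were tested, 53 were higher and 49 were lower, and the median log2 fold change was 0.10, against 42.4% higher, 21.5% lower and a median of 0.26 over all tested genes. With median-of-ratios scaling 37 were higher and 64 lower, against 28.0% higher and 31.1% lower over all tested genes. Single lists are short, and a count near these shares is not a result about the list. Among the steps that supply glucose-1-phosphate, sucrose synthase, which cleaves sucrose to UDP-glucose and fructose, had 7 of 10 tested genes lower and 0 higher. Invertase, which cleaves sucrose to glucose and fructose, had 6 of 11 higher and 1 lower. UDP-glucose pyrophosphorylase, which turns UDP-glucose into glucose-1-phosphate, had 2 of 4 higher and 1 lower. Phosphoglucomutase, which interconverts glucose-1-phosphate and glucose-6-phosphate, had 3 of 5 higher and 0 lower. Inorganic pyrophosphatase, which splits pyrophosphate and is not a step of glucose-1-phosphate supply, had 12 of 23 higher and 3 lower. Fructokinase had 5 of 11 higher and 3 lower, hexokinase 6 of 14 higher and 5 lower, and glucose-6-phosphate isomerase 0 of 7 higher and 1 lower.

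**Figure D4:**
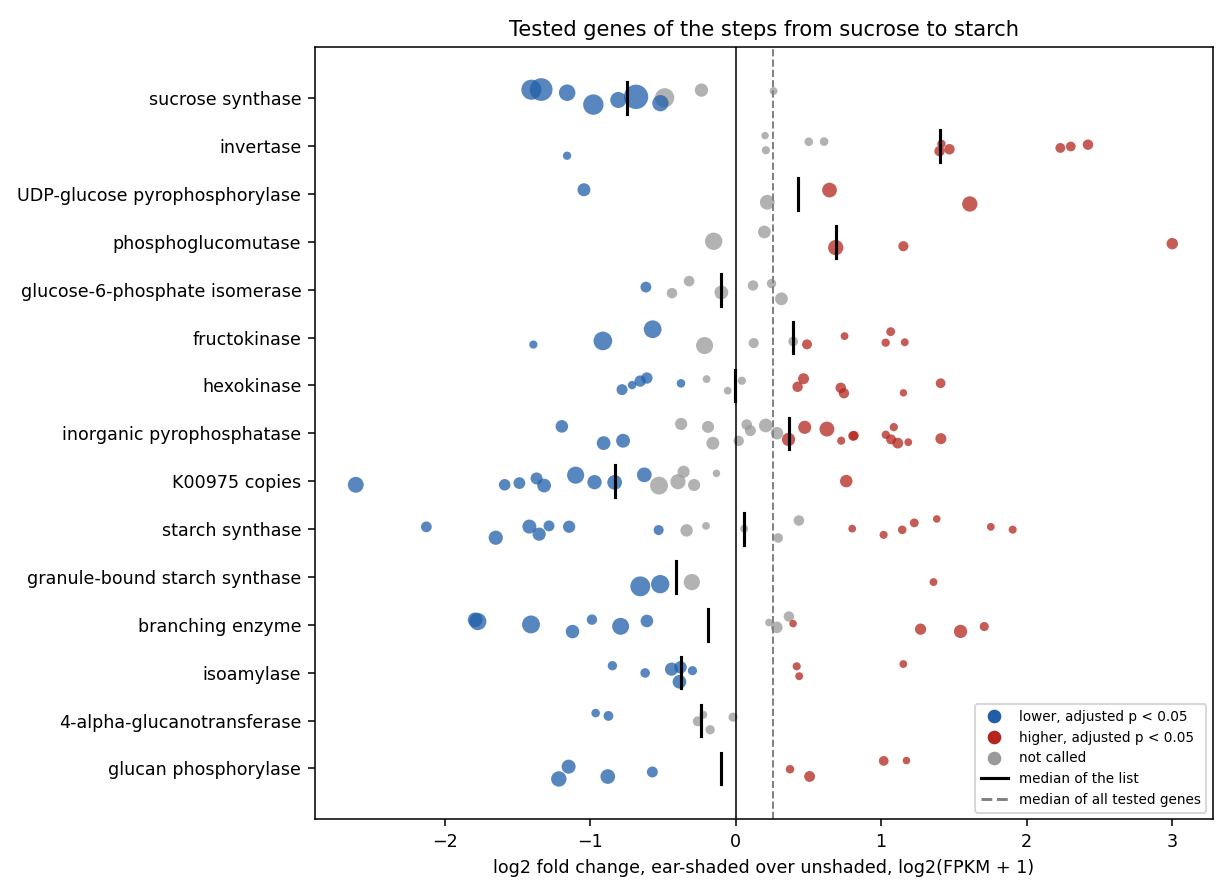
Log2 fold change, ear-shaded over unshaded, of every tested gene in 14 lists from sucrose cleavage to starch and of the K00975 copies (log2(FPKM + 1) scale; larger points have a higher mean FPKM; colours give the call, black bars the median of a list, the dashed line the median of all tested genes). The K00975 copies have a median of -0.83, sucrose synthase one of -0.74, and the lists for starch synthase and branching enzyme spread to both sides of 0.

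The largest called change per list shows how single genes of these steps moved. A sucrose synthase gene (AVESA.00010b.r2.5DG0996560) was at 130 ± 11.6 FPKM in ear-shaded and 347 ± 53.2 FPKM in unshaded grains (SD, n = 3 each). The most abundant sucrose synthase gene (AVESA.00010b.r2.6AG1056840) was at 416 ± 62.9 FPKM in ear-shaded and 667 ± 73.9 FPKM in unshaded grains, and its call as lower (limma adjusted p = 0.0418) ended with other settings, its sign turning with quantile normalization (0.47). A UDP-glucose pyrophosphorylase (AVESA.00010b.r2.5CG0875260), also the most abundant of its list, was at 108 ± 8.99 FPKM in ear-shaded and 34.8 ± 5.24 FPKM in unshaded grains. A phosphoglucomutase (AVESA.00010b.r2.4AG0603230) was at 31.3 ± 1.86 FPKM in ear-shaded and 3.19 ± 1.33 FPKM in unshaded grains, 9.81-fold higher, while the most abundant one (AVESA.00010b.r2.4AG0603240) was at 121 ± 12.2 FPKM in ear-shaded and 134 ± 4.74 FPKM in unshaded grains and did not pass.

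Starch synthase, which adds the glucose of ADP-glucose to the growing chain, had 7 higher and 7 lower of 19 tested. By mean over the 6 libraries, the higher ones were at 1.26 to 3.94 FPKM and the lower ones at 8.55 to 50.6 FPKM. The summed FPKM of starch synthase was 176 ± 7.24 in ear-shaded and 339 ± 31.9 in unshaded grains (SD, n = 3 each). Its most abundant gene (AVESA.00010b.r2.7AG1210350) was 3.20-fold lower and the gene of largest change (AVESA.00010b.r2.7AG1239790) 5.22-fold lower. Branching enzyme, which makes the branch points of the chains, had 4 higher and 7 lower of 14, with 417 ± 9.75 FPKM in all in ear-shaded and 796 ± 88.0 FPKM in unshaded grains, 1.91-fold lower. Its most abundant gene (AVESA.00010b.r2.6AG1020500) was 2.68-fold lower. Granule-bound starch synthase, which makes amylose, had 1 higher and 2 lower of 4, and the sign of its most abundant gene (AVESA.00010b.r2.5CG0866950, log2 fold change -0.65) turned with quantile normalization (0.07). The call of that gene as lower also ended without a filter, with the replicate block, without unshaded replicate 1 or 2, without ear-shaded replicate 1 or 2 and with ear-shaded replicates 1 and 2 averaged. The debranching isoamylase had 3 higher and 6 lower of 9, 4-alpha-glucanotransferase 0 higher and 2 lower of 6, and glucan phosphorylase 4 higher and 4 lower of 8. By overall mean, the higher isoamylase genes were at 1.68 to 2.22 FPKM and the lower ones at 4.98 to 42.7 FPKM. For glucan phosphorylase these ranges were 1.24 to 13.6 and 13.7 to 73.6 FPKM. The higher granule-bound starch synthase gene was at 1.80 FPKM, the lower ones at 159 and 227 FPKM. In branching enzyme the ranges overlapped (1.19 to 37.0 and 10.4 to 145 FPKM). Text for the ADP-glucose transporter of the amyloplast was matched by 0 genes, so that step is not reported.

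Among 15406 other described genes averaging 5 FPKM or more, the 5 whose centred log2(FPKM + 1) profiles over the 6 libraries lay nearest to that of AVESA.00010b.r2.1DG0152950 differed from it by a root mean square of 0.05 to 0.07. They were a ribosomal protein S15A (AVESA.00010b.r2.3CG0492270), a leucyl aminopeptidase whose row also carries RNA polymerase text (AVESA.00010b.r2.6AG1045130), a TatA translocase (AVESA.00010b.r2.4AG0597670), a peptidyl-tRNA hydrolase (AVESA.00010b.r2.1DG0137140) and the mitochondrial import protein TIM22 (AVESA.00010b.r2.4CG1321820). In all 5, unshaded replicate 3 was the lowest unshaded library, as in AVESA.00010b.r2.1DG0152950. That likeness follows from the choice, which used the same 6 libraries. Nothing on shared function follows from 6 libraries.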

How the data were processed

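The 6 RNA-seq libraries were assigned to groups from their treatment labels. The labels' protocols describe Trizol extraction and an Illumina library kit but name a PacBio sequencer, so the platform is not settled. The submitters' processing notes list HISAT2 and StringTie with no version or role, and the build is not given in the sources used here. Deposited by the authors were one FPKM value for every gene in every library, the gene length (another deposited quantity, in bases), and the authors' log2 fold change, p-value and adjusted p-value, from a tool that is not named. FPKM are not counts. In a search for whole reads, 17.0% to 19.6% of low values fell within 0.05 of a whole number at the best step, so depth is unknown and no counting interval is given.

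Of 136488 genes, the 58283 averaging 1 FPKM or more were tested with limma 3.58.1 (R 4.3.3) on log2(FPKM + 1), with a variance trend, two-sided, Benjamini-Hochberg adjusted over all genes tested, at a threshold of 0.05. A fold is a ratio of mean FPKM. A log2 fold change is a difference of mean log2(FPKM + 1), which understates low genes. Pairs of copies were compared with exact permutation tests (scipy 1.17.1). The model was tested on simulated data with independent noise in each library and few changed genes. In the real data 63.9% of tested genes were called, so the simulation cannot vouch for these calls or for the scaling. Members and lists were chosen with earlier results of these data known. Values in every library were set for the 12 copies of highest mean; the other 3 were added after their values had been seen. Per list, the gene of highest mean and the called gene of largest change could be named. Alternatives covered pseudocount, filter, scaling, variance model, library weights, replicate block and left-out or averaged libraries. Counts without the gene with guanylyltransferase text, without the copies labelled Un and with a minimum fold were added after seeing the data.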

Additional observations from a re-analysis of the deposited data

How the results depend on the processing

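Of 254 alternative values for the 15 copies, 241 kept direction and side of the threshold; 9 passed that had not, 1 no longer passed and 3 changed sign without passing: AVESA.00010b.r2.1DG0152950 with quantile normalization (0.0346), AVESA.00010b.r2.7AG1231930 without unshaded replicate 1 (0.0475) and AVESA.00010b.r2.2CG0286880 without ear-shaded replicate 1 (0.0151). When each library was left out in turn, the log2 fold change ran from -0.5489 to 0.0475 for the 7A copy and from -0.2148 to 0.0151 for the 2C copy. The 9 copies called lower stayed so under the 17 alternatives run on the fit. The count of lower copies ran from 9 to 12 and of higher copies from 1 to 1 when each library was left out. In these fits 30665 to 38069 of 58283 tested genes were called, 64.7% to 68.1% of them higher. No copy was higher (0) with median-of-ratios scaling, without the 2 copies labelled Un and with a log2 fold change of at least 1 required, where 6 were lower; the last 2 were chosen after seeing the data. The log2 ratio of the sums was -1.3425 with median-of-ratios scaling.

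Over all genes 38730 were higher without a filter, of 56196 called in 136488 tested. With a filter of mean 5 FPKM 7292 were higher and 5275 lower of 18805 tested. There 28 genes of the starch lists were higher, against 53 of 145 tested in the main fit. The number of list genes lower with that filter is not given, so the 28 give no direction. With median-of-ratios scaling 16333 genes were higher and 18139 lower of 58283 tested. The share of calls that were higher was 66.4% as deposited, 47.4% with median-of-ratios scaling, 52.2% with quantile normalization and 71.6% with equal sums. Outside the 15 copies, a sucrose synthase gene (AVESA.00010b.r2.6AG1056840, 0.4725), a phosphoglucomutase gene (AVESA.00010b.r2.4AG0603240, 0.4119) and a granule-bound starch synthase gene (AVESA.00010b.r2.5CG0866950, 0.0662) turned positive with quantile normalization, and a glucose-6-phosphate isomerase gene (AVESA.00010b.r2.5DG0960980, 0.0346) with equal sums. The cause was not tested. Same-numbered libraries did not deviate together (r from -0.147 to -0.0461). Deviations from means of only 3 libraries cannot decide whether the numbers pair them. The replicate block gave 9 lower and 1 higher copies, 22128 higher and 11318 lower genes, and 50 higher and 39 lower genes of the starch lists. The correlation over genes was 0.989 between ear-shaded replicates 1 and 2 and 0.949 to 0.965 in the other within-group pairs. With these 2 libraries averaged, 9 copies were lower and 1 higher, and 31064 of 58283 tested genes were called, 66.3% of them higher.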
